A study of Mus musculus with 8 samples.

Results

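The adherens junction holds neighbouring cells together through cadherins, transmembrane proteins whose outer parts bind cadherins on the next cell, and catenins, which tie the inner tails of cadherins to actin. Beta-catenin binds the tail, alpha-catenin joins beta-catenin to actin filaments, and p120-catenin keeps the cadherin at the membrane; beta-catenin is also the transcriptional co-activator of canonical WNT signalling. Epithelia typically carry E-cadherin and mesenchymal cells N-cadherin or cadherin-11, so a duct dissected with its mesenchyme holds both kinds. The genes described are 10 of the 46517 in the count table, matched by Ensembl identifier to their mouse symbols. There are 7 cadherins, Cdh1, Cdh2, Cdh3, Cdh4, Cdh6, Cdh11 and Cdh16, and 3 catenins, Ctnna1, Ctnnb1 and Ctnnd1. All 10 passed the filter on low counts, which kept 16469 genes for testing.

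RNA of the mouse epididymal duct, formed from the Wolffian duct, was sequenced at E18.5. The 4 libraries labelled Ptk7 conditional knockout (cKO 1, 2, 4 and 5) carried a floxed Ptk7 allele over the disrupted allele Xst87. The 4 controls (1, 3, 4 and 6) carried a floxed over a wild-type allele. T-Cre, a Cre transgene under the promoter of the mesoderm gene T (Brachyury), and the mT/mG reporter were present in both groups, so Cre and a floxed allele are shared. No label ties a library to an embryo or litter of its own, and the p-values therefore reflect the variation among these 8 samples, some of which may be technical. Total counts were 24807970 to 26363401 in the libraries labelled cKO and 25466675 to 29590547 in controls.

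Ptk7, the targeted gene, stood at 7.33, 7.59 and 12.5 CPM (counts scaled to library size) in cKO 1, 2 and 4, at 194 CPM in the library labelled cKO 5, and at 189, 112, 313 and 169 CPM in controls 1, 3, 4 and 6. The library labelled cKO 5 thus goes against its label, and directions below compare labels unless it is left out. Its log2 fold change was -1.82 (SE 0.95, edgeR adjusted p = 0.655) with all libraries and -4.42 (SE 0.37, edgeR adjusted p = 0.00805) without the library labelled cKO 5. Summed markers of duct epithelium, mesenchyme, smooth muscle and mesothelium had lowest levels of 699, 3128, 1334 and 131 CPM per kb among the libraries. The tissue thus holds several cell types. In such bulk samples, fewer cells of a type and less RNA per cell cannot be told apart.

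Levels of the 10 genes spanned from 0.375 to 245 CPM per kb of exon, averaged over the 8 libraries. Ctnnb1, encoding beta-catenin, was the highest, at 244 ± 16.6 CPM per kb in the cKO label and 247 ± 9.46 in control (SD, n = 4 each). It ranked 263 among the 16469 genes tested. Cdh11, a cadherin of mesenchymal cells, was the highest cadherin, at 139 ± 11.3 CPM per kb in the cKO label and 145 ± 5.94 in control. Ctnna1, encoding alpha-catenin, followed at 85.0 ± 6.20 CPM per kb in the cKO label and 83.8 ± 4.73 in control.

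Of the epithelial cadherins the highest was Cdh16, the kidney-specific cadherin, which has a short inner tail and does not bind beta-catenin. It averaged 57.2 CPM per kb over the 8 libraries. Cdh3, or P-cadherin, followed at 28.3 CPM per kb and Cdh1, or E-cadherin, at 16.8 CPM per kb. Below them came p120-catenin (Ctnnd1, 5.84 CPM per kb), N-cadherin (Cdh2, 1.95), Cdh6 (1.44), first described in kidney, and R-cadherin (Cdh4, 0.375). The order held in every library, with 1 exception: Cdh2 was above Cdh6 in 7 of 8 libraries, and their ranges overlapped. The ranges of Cdh3 (22.6 to 34.5 CPM per kb) and Cdh1 (11.8 to 25.0) also overlapped between libraries, though Cdh3 was above Cdh1 in all 8. The level of Ctnnd1 is uncertain: 4482 of its 7319 exon bases are shared on the same strand with Gm28635, which has 0 counts in every library. Reads in the shared exons were thus not counted for both genes. Whether they were dropped, which would make the level of Ctnnd1 too low, is not given in the sources used here. Over its 2837 unshared bases alone the same counts would give 15.1 CPM per kb (13.7 to 18.8 between libraries). That lies within the range of Cdh1, so the place of Ctnnd1 below Cdh1 is uncertain too.

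**Figure D1:**
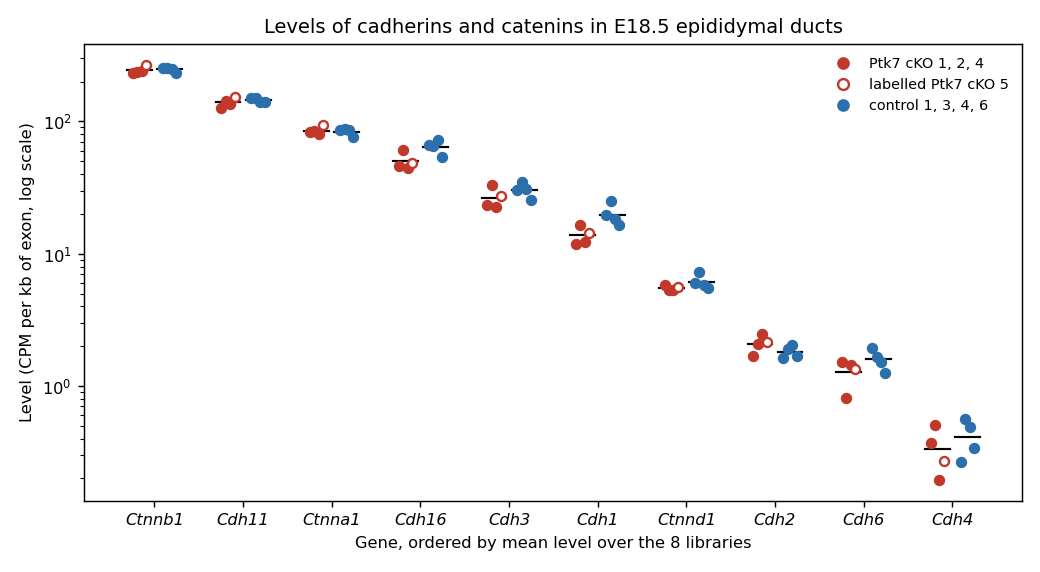
Level of each gene in CPM per kb of exon (log axis) in each library, with the group mean as a line; libraries labelled Ptk7 cKO are on the left of each pair and controls on the right. The 10 genes run from Ctnnb1 at 245 CPM per kb to Cdh4 at 0.375. The level of Ctnnd1 is uncertain and may be too low, as exon bases are shared with Gm28635. The open circle of the library labelled cKO 5 is the highest of all libraries for Ctnnb1, Cdh11 and Ctnna1, and lies among the others for the remaining genes.

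As a share of the summed CPM per kb of the 7 cadherins, Cdh11 made up 59.8 ± 2.87% in the cKO label and 55.2 ± 2.52% in control (SD, n = 4 each). The share of Cdh16 was 21.4 ± 1.78% in the cKO label and 24.4 ± 2.05% in control. Cdh1 made up 5.63, 6.46, 5.67 and 5.80% in cKO 1, 2, 4 and 5, against 7.23, 8.94, 6.81 and 6.90% in controls 1, 3, 4 and 6. These ranges of Cdh1 did not overlap. The share of Cdh2 ran the other way, at 0.798, 0.807, 1.13 and 0.875% in cKO 1, 2, 4 and 5 and 0.599, 0.687, 0.770 and 0.706% in controls 1, 3, 4 and 6, again with no overlap. Shares move together by construction, so these are descriptions of the same libraries and were not tested. Among catenins Ctnnb1 held 72.9 ± 0.632% in the cKO label and 73.3 ± 0.443% in control, and the shares of all 3 catenins overlapped between the groups. The catenin shares use the uncertain level of Ctnnd1, which may be too low.

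Setting the cKO label against control would ask how loss of Ptk7 bears on RNA levels in the duct. With all libraries it compares labels only, because Ptk7 in the library labelled cKO 5 (194 CPM) lay within the control range. That library still had Cdh1 (65.3 CPM) and Cdh16 (146 CPM) below every control. Whether either gene follows the level of Ptk7 was not tested. E-cadherin and Cdh16 were lower in the cKO label, while beta-catenin and alpha-catenin differed by little. No cadherin or catenin passed an adjusted p of 0.05 in edgeR: 0 of the 10 were called, and 0% of the 16469 genes were. At an unadjusted p under 0.05, 2 of the 10 were lower (Cdh1 and Cdh16) and 0 were higher. Over all genes tested that threshold was passed by 8.37%, of which 4.87% of all genes were lower and 3.5% higher. The median log2 fold change of the 10 was -0.17, with 8 below 0, against 0.01 over all genes. None of the 10 had groups whose CPM ranges were clear of each other, against 5.76% of all genes (2.65% higher and 3.11% lower). Without the library labelled cKO 5 the counts were again 2 lower and 0 higher (median -0.19), where 8.74% of all genes passed and 5% were lower.

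Cdh1 (ENSMUSG00000000303; GRCm38 chromosome 8, 106603351 to 106670246, plus strand) stood at 54.2, 76.0, 56.5 and 65.3 CPM in cKO 1, 2, 4 and 5, against 89.5, 114, 83.1 and 75.0 CPM in controls 1, 3, 4 and 6. The groups overlapped by a narrow margin, because cKO 2 lay above control 6; every other library labelled cKO lay below every control. Means were 63.0 ± 9.90 CPM in the cKO label and 90.5 ± 16.9 in control (SD, n = 4 each). The log2 fold change was -0.52 (SE 0.14, 95% interval -0.83 to -0.21), a change of -30.4%, with an edgeR adjusted p of 0.295. DESeq2, which called 1.13% of the genes it tested and 0.781% as lower, put Cdh1 just under the threshold (adjusted p = 0.0498) and no other cadherin or catenin. That call was lost without the library labelled cKO 5 (DESeq2 adjusted p = 0.0971, with 1.04% of genes called), though the log2 fold change stayed at -0.54 in both tools. Control 3 had the highest Cdh1, and without it the edgeR log2 fold change was -0.39 (edgeR adjusted p = 0.434). Over the 17 alternatives the edgeR, DESeq2 and limma values ranged from -0.64 to -0.39, and adjusted p from 0.0498 to 0.603.

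Cdh16 (ENSMUSG00000031881; chromosome 8, 104614141 to 104624396, minus strand) stood at 138, 183, 133 and 146 CPM in cKO 1, 2, 4 and 5, against 199, 197, 218 and 160 CPM in controls 1, 3, 4 and 6. As for Cdh1, the highest library labelled cKO was cKO 2 and the lowest control was control 6, and they crossed. The log2 fold change was -0.37 (SE 0.12, 95% interval -0.64 to -0.10, edgeR adjusted p = 0.400). It ranged from -0.62 to -0.31 over 17 alternatives, with no adjusted p under 0.124.

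Cdh3 (ENSMUSG00000061048; chromosome 8, 106510913 to 106556908, plus strand) ends 46442 bases before the start of Cdh1, and 4 of the 7 cadherins (Cdh1, Cdh3, Cdh11 and Cdh16) lie on chromosome 8. It stood at 92.0, 131, 89.7 and 109 CPM in cKO 1, 2, 4 and 5, against 119.8, 137, 122 and 101 CPM in controls 1, 3, 4 and 6. These groups overlapped broadly. The log2 fold change of Cdh3 was -0.19 (SE 0.13, 95% interval -0.47 to 0.10, edgeR adjusted p = 0.733). It was -0.31 without cKO 2, where Cdh3 passed an unadjusted p of 0.05 (edgeR adjusted p = 0.539), and -0.11 without control 3 (edgeR adjusted p = 0.949).

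Cdh11 (ENSMUSG00000031673; chromosome 8, 102632995 to 102785111, minus strand) stood at 531, 604, 567 and 642 CPM in cKO 1, 2, 4 and 5, against 636, 632, 595 and 587 CPM in controls 1, 3, 4 and 6. The library labelled cKO 5 was the highest of all and cKO 1 the lowest, so all controls lay within the range of the cKO label. The upper end of that range is the library whose Ptk7 goes against its label. The log2 fold change was -0.06 (SE 0.08, 95% interval -0.24 to 0.11, edgeR adjusted p = 0.835) with all libraries. Without the library labelled cKO 5 it was -0.11 (SE 0.08, edgeR adjusted p = 0.722), and the highest library labelled cKO was cKO 2 at 604 CPM.

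**Figure D2:**
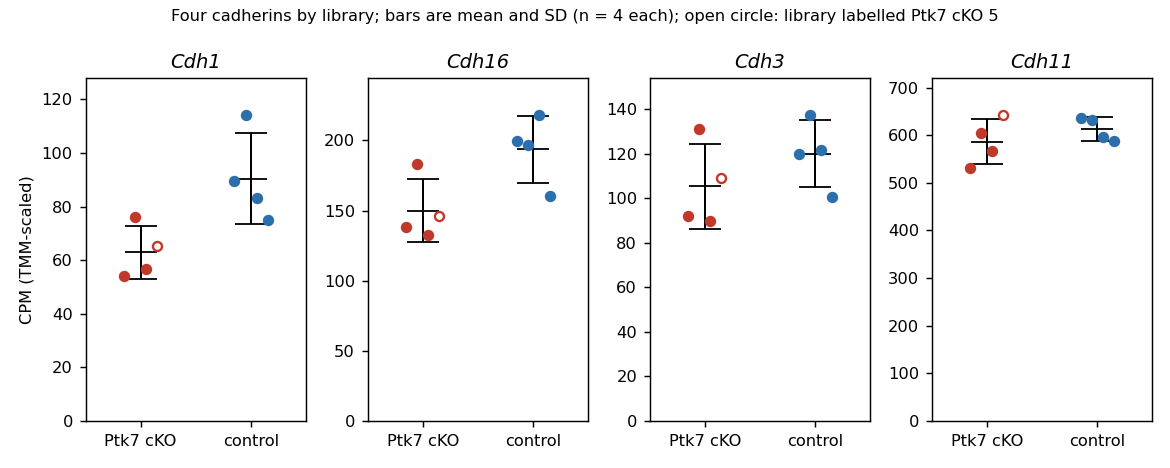
CPM of Cdh1, Cdh16, Cdh3 and Cdh11 in each library, with open circles for the library labelled cKO 5 and bars for the mean and SD (n = 4 each); each axis starts at 0. In Cdh1 and Cdh16 the libraries labelled Ptk7 cKO sit lower, except cKO 2 at 76.0 CPM of Cdh1 and 183 CPM of Cdh16. The controls of Cdh11 lie within the range of the cKO label, whose upper end is the library labelled cKO 5.

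Among the 3 low cadherins, Cdh4 and Cdh6 had the widest intervals of the 10 genes. Cdh2 (ENSMUSG00000024304), the N-cadherin of mesenchyme and neurons, had 13.5, 16.7, 19.8 and 17.4 CPM in cKO 1, 2, 4 and 5, against 13.1, 15.5, 16.6 and 13.5 CPM in controls 1, 3, 4 and 6. It was the cadherin with the positive log2 fold change (0.20, SE 0.13, 95% interval -0.08 to 0.48, edgeR adjusted p = 0.709). Cdh6 (ENSMUSG00000039385) averaged 3.39 ± 0.855 CPM in the cKO label and 4.18 ± 0.759 in control (SD, n = 4 each), with a log2 fold change of -0.30 (95% interval -0.79 to 0.18). Cdh4 (ENSMUSG00000000305) had 37 to 122 counts per library and a log2 fold change of -0.31 (SE 0.32, 95% interval -1.01 to 0.39).

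Beta-catenin and alpha-catenin had the log2 fold changes closest to 0 of the 10 genes. Ctnnb1 (ENSMUSG00000006932; chromosome 9, 120929216 to 120960507, plus strand) had 1180, 1204, 1221 and 1367 CPM in cKO 1, 2, 4 and 5, against 1287, 1296, 1267 and 1190 CPM in controls 1, 3, 4 and 6. The library labelled cKO 5 was the highest, and the other libraries labelled cKO lay in or just below the control range. Its log2 fold change was -0.02 (SE 0.07, 95% interval -0.18 to 0.14, edgeR adjusted p = 0.958). It shares 240 exon bases with Ulk4 on the other strand, and the strand setting of the counts is not given in the sources used here. Ctnna1 (ENSMUSG00000037815) had 305, 311, 295 and 347 CPM in cKO 1, 2, 4 and 5, against 317, 323, 316 and 284 CPM in controls 1, 3, 4 and 6. Its log2 fold change was 0.02 (SE 0.08, 95% interval -0.15 to 0.19) with all libraries and -0.031 without the library labelled cKO 5. Ctnnd1 (ENSMUSG00000034101) had 42.4, 38.7, 39.1 and 41.2 CPM in cKO 1, 2, 4 and 5, against 43.9, 53.4, 42.7 and 40.2 CPM in controls 1, 3, 4 and 6. Apart from control 3 all its libraries lay close together, and the log2 fold change was -0.16 (SE 0.09, edgeR adjusted p = 0.692) with control 3 and -0.066 (SE 0.07) without it.

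**Figure D3:**
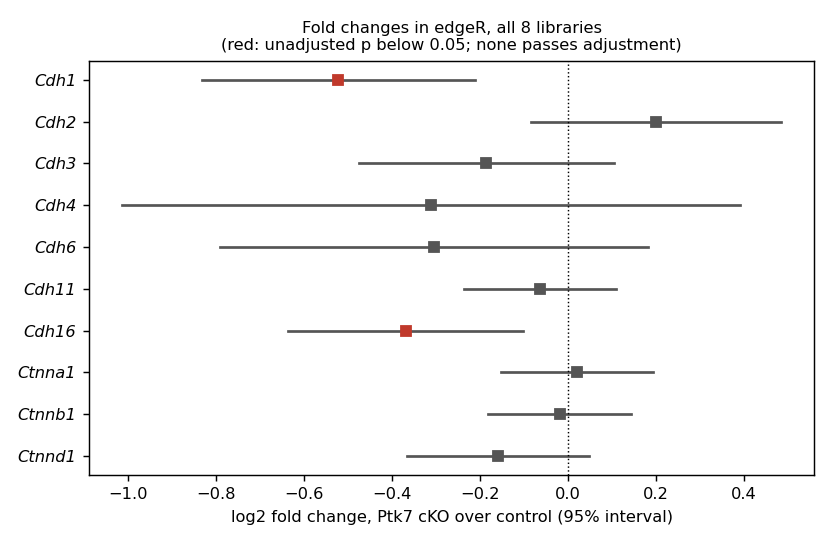
Log2 fold change of each gene, Ptk7 cKO over control, in edgeR with all 8 libraries; squares are the estimates, red where the unadjusted p was under 0.05, and lines the 95% intervals. The intervals of Cdh1 (-0.83 to -0.21) and Cdh16 (-0.64 to -0.10) lie below 0, and those of the other 8 genes include it.

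Ratios within a library do not depend on the scaling of that library. They were picked with the low level of Cdh1 known and have no test. On the log2 scale the ratio of Cdh1 to Cdh3 was -0.76, -0.78, -0.66 and -0.74 in cKO 1, 2, 4 and 5, against -0.42, -0.27, -0.55 and -0.42 in controls 1, 3, 4 and 6. All libraries labelled cKO, cKO 5 included, lay below all controls. The log2 ratio of Cdh1 to Cdh2 averaged 1.90 ± 0.281 in the cKO label and 2.61 ± 0.259 in control, and that of Cdh1 to Cdh11 averaged -3.23 ± 0.158 in the cKO label and -2.78 ± 0.214 in control (SD, n = 4 each). Neither of these overlapped between the groups. The ratios to Cdh3, Cdh2 and Cdh11 reuse the same Cdh1 values, and how often ratios of other gene pairs fail to overlap was not computed. The ratio of Ctnnd1 to Ctnnb1 overlapped. The log2 ratio of Cdh1 to Cdh16 overlapped, with -1.25 ± 0.0789 in the cKO label and -1.11 ± 0.250 in control, as did the log2 ratio of Cdh1 to Ctnnb1 (-4.31 ± 0.219 in the cKO label and -3.82 ± 0.216 in control).

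Markers of the duct epithelium other than cadherins also tended below 0. Of 22, among them Epcam, Pax8, keratins and claudins, 9 were lower and 1 higher at an unadjusted p under 0.05. The higher one was Krt19 (log2 fold change 0.47, SE 0.16), named after its values were seen, and Epcam did not pass. The median log2 fold change of the 22 was -0.23, with 0 passing adjustment. Their summed level was 699 to 970 CPM per kb in the cKO label and 805 to 927 in control, and no marker was at 0. Of 14 mesenchyme markers 1 was lower and 0 were higher, with a median of 0.06 and a summed level of 3430 to 4072 CPM per kb in the cKO label and 3128 to 3702 in control. Markers of smooth muscle gave 6 of 10 lower and 1 higher, with summed levels that did not overlap (1334 to 1714 CPM per kb in the cKO label and 1721 to 2032 in control). Of mesothelium 5 of 8 markers were higher, of neurons and Schwann cells 3 of 8, of erythroid cells 2 of 7 and of macrophages 1 of 10, with 0 lower in each, while of testis 2 of 5 were lower and of endothelium 0 of 10 passed in either direction. Over all genes 8.37% passed. Without the library labelled cKO 5, 6 duct epithelium markers were lower and 1 higher, and 7 smooth muscle markers were lower and 1 higher. Higher without it were 4 of mesothelium, 3 of neurons and Schwann cells, 1 of erythroid cells and 1 of macrophages, and 2 of testis were lower. Mesenchyme and endothelium then had 0 in either direction, and 8.74% of all genes passed. The part of these cell types in the cadherin values was not tested.

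Each epithelial cadherin was set against the mean log2 CPM of the 22 epithelial markers in its own library. Cdh1 stood 0.32, 0.52, 0.47 and 0.44 above that mean in cKO 1, 2, 4 and 5, against 0.69, 1.14, 0.48 and 0.64 in controls 1, 3, 4 and 6. The mean difference was -0.30, with overlap at cKO 2 and control 4 (exact two-sided permutation p = 0.0571; 0.114 adjusted over the 4 values computed). It was -0.17 without control 3, the highest library (exact permutation p = 0.0857). Cdh16 relative to the same markers differed by -0.16 (exact permutation p = 0.0571; adjusted 0.114), and Cdh3 by 0.02 (exact permutation p = 0.80; adjusted 0.80). Cdh11 set against the 14 mesenchyme markers differed by -0.10 (exact permutation p = 0.0857; adjusted 0.114). The smallest p that 4 against 4 allows is 0.0286, and none of these differences reached it.

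**Figure D4:**
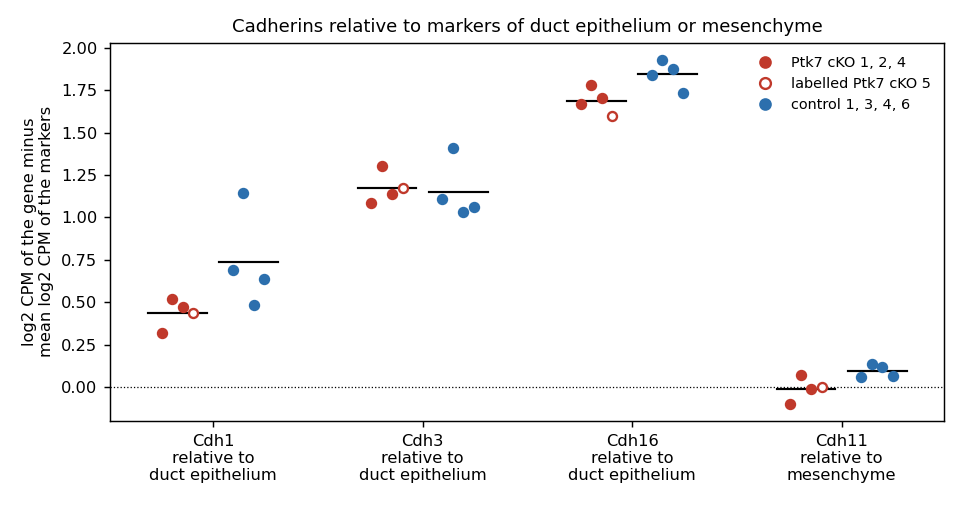
Log2 CPM of Cdh1, Cdh3 and Cdh16 minus the mean log2 CPM of duct epithelium markers, and of Cdh11 minus that of mesenchyme markers, in each library, with group means as lines. Cdh1 averaged 0.44 in the cKO label and 0.74 in control, with control 3 at 1.14, while Cdh3 averaged 1.17 in the cKO label and 1.15 in control.

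Pairs of these genes varied together to different degrees across the 8 libraries. Cdh1, Cdh3 and Cdh16 had Pearson r of 0.85 to 0.87 with each other (Spearman rho 0.79 to 0.88). Ctnnb1 varied with Ctnna1 (r = 0.88, rho = 0.88) and with Cdh11 (r = 0.81, rho = 0.86). Cdh11 also varied with Cdh3 (r = 0.72, rho = 0.60) and Cdh1 (r = 0.70, rho = 0.60), Cdh1 with Ctnnd1 (r = 0.74, rho = 0.60), and Cdh3 with Cdh4 (r = 0.71, rho = 0.76). Cdh2 had r between -0.32 and 0.23 with every other member. With markers of cell types, the r of Cdh2 was 0.05 for mesenchyme, 0.57 for neurons and Schwann cells, 0.43 for mesothelium and -0.73 for testis. The points share the group difference and the scaling of each library, so these values are descriptions. Cdh16 followed the mean of the 22 duct epithelium markers most closely (r = 0.95, rho = 0.98), ahead of Cdh3 (r = 0.83, rho = 0.76) and Cdh1 (r = 0.74, rho = 0.81). With the 14 mesenchyme markers the values were r = 0.72 for Ctnnb1, 0.71 for Ctnna1 and 0.60 for Cdh11, against -0.04 for Cdh1. Cdh11 had the same r of 0.60 with the duct epithelium markers, but its rho was 0.79 with mesenchyme and 0.45 with duct epithelium. With the 10 smooth muscle markers r was 0.81 for Cdh16 (rho = 0.90), 0.73 for Cdh1 (rho = 0.83), 0.73 for Cdh11 (rho = 0.74) and 0.70 for Cdh3 (rho = 0.71). Values about as strong, but negative, were found with other marker lists, not all of which are given here. Among them were r = -0.80 for Cdh4 with endothelium, -0.74 for Cdh16 with erythroid cells and -0.73 for Cdh1 with macrophages.

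**Figure D5:**
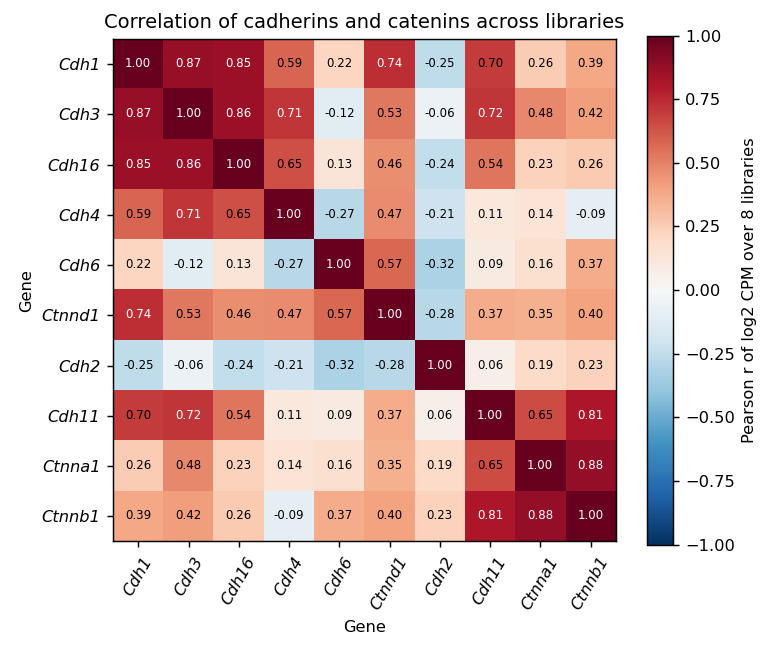
Pearson r of log2 CPM over the 8 libraries for each pair of genes, from blue (negative) to red (positive). A block of Cdh1, Cdh3 and Cdh16 (0.85 to 0.87) and the pair Ctnna1 and Ctnnb1 (0.88) have the highest values, Cdh11 has 0.70 with Cdh1 and 0.72 with Cdh3, and Cdh2 is pale or blue along its row.

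The genes most like each member were searched among 14778 genes with a mean of at least 1 CPM, by Pearson r of log2 CPM over the 8 libraries. For Cdh1 they were Cdcp1 (r = 0.97, rho = 0.95) and Sema3c (r = 0.97, rho = 0.93). For Cdh16 they were Mlph (r = 0.99, rho = 0.98) and Tbc1d9 (r = 0.98, rho = 0.95), and for Cdh3 the first was Pcbp3 (r = 0.98, rho = 0.98). Cdh4 was matched by Nnt (r = 0.99, rho = 1) and Qsox2 (r = 0.97), Cdh11 by D230025D16Rik and Adgrl2 (both r = 0.97), Cdh2 by Shc4 and Polm (both r = 0.96), and Cdh6 by Sgk1 (r = 0.93) and Mef2c (r = 0.92). The catenins were matched by Ylpm1 and Tpr (Ctnnb1, both r = 0.98), Mtrex (r = 0.97) and Gbf1 (r = 0.96) for Ctnna1, and Smc5 and Slc25a3 (Ctnnd1, both r = 0.98). With so many genes and 8 libraries, values near 1 are found for every member.

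Of 47 other adherens junction genes 43 were tested; 3 were higher and 3 lower at an unadjusted p under 0.05, with 0 passing adjustment in edgeR and a median log2 fold change of -0.03. Without the library labelled cKO 5 these counts were 0 and 5 (median -0.12). Of all genes, 3.5% were higher and 4.87% lower with all libraries, and 5% were lower without the library labelled cKO 5. Lmo7, which encodes a LIM-domain protein of the junction that binds afadin and alpha-actinin, was lower. It had 24.5, 27.7, 24.9 and 31.4 CPM in cKO 1, 2, 4 and 5, against 35.6, 35.2, 35.0 and 33.6 CPM in controls 1, 3, 4 and 6. The groups did not overlap, which held for 3 of the 43 genes and for 5.76% of all genes, and the controls lay very close together. Lmo7 was named for having the smallest p of its list, the other catenins and linkers to actin. Its log2 fold change was -0.36 (SE 0.09, edgeR adjusted p = 0.245), and DESeq2 gave an adjusted p of 0.0496.

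Among 15 other cadherins, 11 of which were tested, 2 were higher and 1 lower at an unadjusted p under 0.05. Cdh5, the cadherin of endothelium, was the highest, at 23.9 CPM per kb in the cKO label and 25.3 in control, with a log2 fold change of -0.08 (SE 0.12). Cdh24 averaged 12.6 ± 2.02 CPM in the cKO label and 10.04 ± 1.16 in control (SD, n = 4 each; log2 fold change 0.32, SE 0.14), and Cdh17, the liver-intestine cadherin, 0.915 ± 0.468 CPM in the cKO label and 1.60 ± 0.326 in control (log2 fold change -0.79, SE 0.34). Without the library labelled cKO 5 none of the 11 passed in either direction. The other higher one was Cdh12, named after its values were seen, at 0.623 ± 0.190 CPM in the cKO label and 0.362 ± 0.107 in control.

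Of 20 other catenins and linkers to actin, 1 was higher and 2 lower with all libraries, and 0 were higher and 4 lower without the library labelled cKO 5. The higher one, which did not pass without that library, was Ctnna3, an alpha-catenin of heart muscle, at 0.837 ± 0.136 CPM in the cKO label and 0.466 ± 0.203 in control. Beside Lmo7 the lower one was Ssx2ip, which links afadin to alpha-actinin, with a log2 fold change of -0.16 (SE 0.07), also named after its values were seen. Actn4, an actin cross-linker and the highest of that list, had a log2 fold change of 0.08 (SE 0.13). None of 12 nectins, phosphatases and other junction regulators passed an unadjusted p of 0.05. The smallest p there was that of the receptor phosphatase Ptprk (log2 fold change -0.14, SE 0.08, edgeR adjusted p = 0.668), followed by Cbll1, a ubiquitin ligase of E-cadherin (-0.19, SE 0.12). Nectin2, the highest, had a log2 fold change of 0.14 (SE 0.11).

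Transcription and splicing factors known to bear on cadherin levels gave 4 of 13 lower and 0 higher at an unadjusted p under 0.05. These counts were the same without the library labelled cKO 5. The median log2 fold change was -0.12, with 0 passing adjustment in edgeR. By comparison, 4.87% of all genes were lower (5% without the library labelled cKO 5). The duct epithelium markers gave 9 of 22 lower and 1 higher. Groups did not overlap for 3 of the 13, for 2 of the 22 and for 5.76% of all genes. Whether the lower levels are particular to these factors was not tested. The 4 (Esrp1, Ehf, Grhl2 and Esrp2) are known from epithelia, as are the 3 others of the list that did not pass: Ovol1 (log2 fold change -0.07, SE 0.28), Ovol2 (-0.24, SE 0.23) and Elf3 (-0.24, SE 0.16). Esrp1, an epithelial splicing regulator, had 26.3, 31.8, 22.9 and 25.9 CPM in cKO 1, 2, 4 and 5, against 36.6, 48.4, 39.6 and 33.2 CPM in controls 1, 3, 4 and 6, with no overlap. Ehf, an epithelial ETS factor, had 70.6, 80.4, 58.7 and 68.5 CPM in cKO 1, 2, 4 and 5, against 89.3, 112, 96.8 and 84.5 CPM in controls 1, 3, 4 and 6, also with no overlap. Both followed the libraries as Cdh1 did, with cKO 2 the highest of the cKO label and control 3 the highest of all. The log2 fold changes were -0.56 (SE 0.13) for Esrp1 and -0.46 (SE 0.11) for Ehf, with edgeR adjusted p of 0.219 and 0.231 and DESeq2 adjusted p of 0.0159 and 0.0309. The other 2 were Grhl2 (-0.57, SE 0.16) and Esrp2 (-0.36, SE 0.15), named after their values were seen. The repressors of E-cadherin did not pass: Snai1 had a log2 fold change of -0.12 (SE 0.11), Snai2 of 0.16 (SE 0.10), Zeb1 of -0.0036 (SE 0.08), Zeb2 of 0.20 (SE 0.09, edgeR adjusted p = 0.623) and Twist1, the highest of the list by mean CPM per kb over all libraries, of 0.11 (SE 0.15).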

How the data were processed

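The authors deposited whole-number counts for 46517 genes, 1 column per library, beside each gene's summed exon length. STAR, featureCounts and GRCm38 are named, per the submitters' processing notes. Not given in the sources used here are tool versions, strand setting, handling of shared reads and annotation release. A symbol was found for 46005 of them.

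The main test was edgeR 4.0.16 in R 4.3.3 (TMM factors, filterByExpr, quasi-likelihood fit of group to all 8 libraries, Benjamini-Hochberg adjustment over 16469 genes at 0.05). The SE is the log2 fold change divided by the square root of F, and is approximate. CPM are scaled by TMM factors; levels between genes are CPM per kb of exon. Log2 CPM have a prior count of 2. The biological coefficient of variation was 15.2%, larger than counting error for all but low genes. No pair of libraries agreed within counting noise (lowest chi-square per degree of freedom 15.5). No batch is labelled.

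The genes, lists and tests were chosen with earlier results of these data known. Named genes were the 10 members, Ptk7, and of each junction list the 2 with the smallest p and the 1 with the highest level; for each member, the 2 genes with the highest Pearson r, of which 1 is not reported here. Others (Cdh12, Ssx2ip, Grhl2, Esrp2, Ovol1, Ovol2, Elf3, Krt19, and the repressors Snai1, Snai2, Zeb1 and Zeb2) were added after their values were seen. Alternatives were DESeq2 1.42.0 (also its size factors in edgeR), upper-quartile factors, other filters, limma 3.58.1 voom with quality weights, a replicate block on title numbers, and each library left out in turn. The code was tested on simulated counts. Figures used matplotlib 3.10.9 in Python 3.11.15.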

Additional observations from a re-analysis of the deposited data

Results flagged for a closer look

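Within groups of 4, 2 values stood far from the other 3 (by Dixon's ratio of gap to range at its 95% critical value), among 30 groups examined, where chance gives about 1 in 20. Ptk7 in the library labelled Ptk7 cKO 5 was 194 CPM, against 7.33 to 12.5 CPM in the other libraries with that label. Ctnna1 in control 6 was 284 CPM, against 316 to 323 CPM in the other controls, and without control 6 the log2 fold change of Ctnna1 was -0.019.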

How the results depend on the processing

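In all 17 alternatives Cdh1, Cdh3, Cdh4, Cdh6, Cdh11, Cdh16 and Ctnnd1 kept a negative and Cdh2 a positive log2 fold change, and Cdh1 and Cdh16 kept an unadjusted p under 0.05. Ctnna1 changed sign under the replicate block (-0.078), in the same 4 libraries with no block (-0.078), without control 6 (-0.019), and without the library labelled cKO 5 in edgeR (-0.031) and DESeq2 (-0.029), with up to 0.051 when another library was left out. Ctnnb1 ranged from -0.068 to 0.0053 when a library was left out, and was positive without cKO 1. Over all genes, calls were 1 with no filter on low counts, 184 in DESeq2, 173 in DESeq2 without the library labelled cKO 5, 7 under the block, 4 in the same libraries with no block and 0 to 2 when a library was left out. Among the members, 1 was called in DESeq2 (Cdh1), and 0 to 1 were higher when a library was left out (Cdh2, without cKO 1). The members lower at an unadjusted p under 0.05 were 3 under the block, in the same libraries without it and without cKO 2, where Cdh3 was added, and 2 otherwise. Of other adherens junction genes, DESeq2 called 1, with and without the library labelled cKO 5. At an unadjusted p under 0.05, 1 of them was higher with a minimum CPM of 1, 1 higher and 8 lower under the block and in the same libraries without it, 0 higher and 5 lower in DESeq2 without the library labelled cKO 5, and 0 to 3 higher and 1 to 5 lower when a library was left out.

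Relative to duct epithelium, Cdh1 differed by -0.30 with the median of the markers (exact permutation p = 0.0286, the smallest possible) and by -0.39 to -0.17 when a library was left out, Cdh16 by -0.19 to -0.13, and Cdh3 by -0.021 to 0.11, negative without cKO 2, control 4 or control 6. Without control 4, Cdh1 differed by -0.39 (exact permutation p = 0.0286). Without cKO 1, cKO 4 or the library labelled cKO 5 the exact permutation p of Cdh1 was 0.114. With the median of the markers the exact permutation p was 0.2 for Cdh16, 0.971 for Cdh3 and 0.314 for Cdh11. Cdh11 relative to mesenchyme differed by -0.13 (without cKO 2, exact permutation p = 0.0286) to -0.075. The causes were not tested. The replicate block used the 4 libraries whose number occurs in both groups; same-numbered libraries deviated from their group means with r of -0.09 and 0.02, so the numbers were not taken as pairs. Under the block the log2 fold changes were -0.64 for Cdh1, -0.62 for Cdh16 and -0.41 for Cdh3, and in the same libraries without it -0.64, -0.62 and -0.41. The alternatives without the block on those libraries and DESeq2 without the library labelled cKO 5 were chosen after seeing the data. When a library was left out, Cdh3 ranged from -0.31 to -0.11, Ctnnd1 from -0.21 to -0.066, Cdh4 from -0.58 to -0.12 and Cdh6 from -0.40 to -0.14. Cdh4 and Cdh6 had the fewest counts of the members, 37 to 131 per library; whether depth sets their error was not tested.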
